A study of Homo sapiens with 6 samples.

Results

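Integrins and the proteins that gather at their cytoplasmic tails were examined in AsPC-1 cells with and without additional MMP28. The set held 40 genes, chosen by symbol out of 58735 genes in the table: 7 integrin alpha chains, 6 integrin beta chains, 3 tensins, 4 integrin activators (talins and kindlins), 9 focal adhesion adaptors, 3 genes of the kinase module, 3 actin crosslinkers, 3 membrane partners and 2 plakins. All 40 symbols were found, each in 1 row. AsPC-1 cells are a long-established human line derived from pancreatic adenocarcinoma, and MMP28 (epilysin) is a matrix metalloproteinase that cells secrete. The control libraries (3 libraries) are titled NC, and for its RNA sequencing the paper speaks only of control AsPC-1 cells. They were taken as the empty-lentivirus control that the paper names Vector for overexpression, and are called Vector here. The OE-MMP28 group (3 libraries) had been infected with a lentivirus that carried MMP28. On this reading both groups had passed through infection. The methods of the study describe a GFP and puromycin resistance cassette and selection with puromycin. Nothing in the labels states that the libraries of a group came from separate infections or cultures, so p-values measure the spread between these libraries, which may be technical. Bulk RNA was sequenced, and fewer cells that express a gene cannot be told apart from less RNA per cell.

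Integrins are receptors made of 1 alpha and 1 beta chain that hold the cell to laminins, collagens, fibronectin and other matrix proteins. Talins and kindlins bind the beta tail and switch the receptor on, adaptors such as paxillin, vinculin and the parvins assemble on it, and FAK and Src phosphorylate them, while alpha-actinins, filamins and tensins tie the assembly to actin. In epithelial cells the receptor of ITGA6 and ITGB4 instead forms hemidesmosomes, which are fastened to keratin by plakins.

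Total counts lay between 13633249 and 14985715 in the Vector group and between 15568066 and 16691458 in the OE-MMP28 group, so a count of 3, taken as the limit that a count of 0 allows, equalled 0.180 to 0.220 CPM (counts scaled to the library total). Counting limits of this kind cover counting error only. Of all counts, mitochondrial genes made up 13.7% ± 1.62 (SD, n = 3) in Vector cells and 10.8% ± 1.71 (SD, n = 3) in OE-MMP28 cells. MMP28, the gene carried by the virus, had 226, 352 and 355 counts in the Vector group and 591, 628 and 725 counts in the OE-MMP28 group (log2 fold change 0.90, SE 0.19, adjusted p = 0.00226). The 6 ductal epithelial markers examined were all above 1 FPKM (fragments per kilobase of exon length, scaled to the library total, the level used below), with a summed level of 2579 to 3520 FPKM in the Vector group and 3517 to 4305 FPKM in the OE-MMP28 group, among which CDH1 (E-cadherin) fell and KRT19 rose. The 6 fibroblast markers summed to 33.9 to 40.9 FPKM in the Vector group and 39.3 to 57.0 FPKM in the OE-MMP28 group, and LUM was the 1 above 1 FPKM. None of 5 macrophage markers or 4 endothelial markers reached 1 FPKM, with sums of 1.02 to 1.18 against 0.711 to 0.932 FPKM for macrophage markers and of 0.0441 to 0.170 against 0.179 to 0.293 FPKM for endothelial markers, and KDR had a count of 0 in every library. The endothelial marker PECAM1 passed as higher, with 0, 4 and 4 counts against 13, 21 and 30 counts (log2 fold change 2.79, SE 0.64, adjusted p = 0.00361), and its part in the results for the members was not tested.

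Promoter letters are shown for 3 members that rose, to place their SP1 and AP-1 letters. These are the 3 of 10 promoters matched to called members that overlapped annotated exons by at most 30 bases. Each run is the 250 bases before the first of the gene's start sites in the RefSeq table, on build GRCh38.p14, and capitals mark the letters GGGCGG of the GC box read by SP1 and TGANTCA of the AP-1 site, on either strand. Another set of letters, GGAATG of the TEAD site, was searched in the same way, and these letter sets do not overlap each other in the runs shown. ITGA1, whose rise was the largest of the 37 members tested, held none of them at chr5:52787666-52787915 (plus strand).
ITGA1: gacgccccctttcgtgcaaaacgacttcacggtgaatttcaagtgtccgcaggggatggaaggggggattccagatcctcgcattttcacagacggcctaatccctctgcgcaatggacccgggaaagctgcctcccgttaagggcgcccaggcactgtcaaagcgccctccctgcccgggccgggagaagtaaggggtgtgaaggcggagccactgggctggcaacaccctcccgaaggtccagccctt
ITGB5 held 2 matches to the SP1 letters at chr3:124901419-124901668 (minus strand).
ITGB5: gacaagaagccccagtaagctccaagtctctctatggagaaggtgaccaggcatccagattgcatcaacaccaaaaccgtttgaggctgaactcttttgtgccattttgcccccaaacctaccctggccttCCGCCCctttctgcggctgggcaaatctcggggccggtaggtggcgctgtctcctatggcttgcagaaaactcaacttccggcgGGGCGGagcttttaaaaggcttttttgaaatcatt
ACTN4 held 5 matches to the SP1 letters and 1 to the AP-1 letters at chr19:38647399-38647648 (plus strand).
ACTN4: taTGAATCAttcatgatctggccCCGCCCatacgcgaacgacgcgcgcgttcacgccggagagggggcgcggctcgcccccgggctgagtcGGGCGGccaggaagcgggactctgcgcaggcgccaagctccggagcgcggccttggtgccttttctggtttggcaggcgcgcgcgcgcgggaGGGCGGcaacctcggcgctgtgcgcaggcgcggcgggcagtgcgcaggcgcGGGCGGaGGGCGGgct
RefSeq promoters were matched for 31 of the 40 members and not for FERMT1, ITGA3, ITGB3, ITGB4, PARVA, PLEC, PTK2, SRC and TNS4. The SP1 letters were found in 22 of the 31 (71.0%) and in 42.3% of 27305 genes with a promoter of that length. The members' promoters had a median GC content of 72.0%, against 58.0% over all those genes. The AP-1 letters were found in 2 of the 31 (6.45%) and in 6.60% of all, and the TEAD letters in 4 of the 31 (12.9%) and in 11.9% of all. Of the members that rose, 8 had a promoter, and 7 of these 8 held the SP1 letters. Of those that fell, 2 had a promoter, and 1 of these, LIMS1, held them. The windows of ACTN1, CAV1, CAV2 and CD44 overlapped annotated exons by 138, 224, 250 and 250 of their 250 bases. A difference between members that rose and fell was not tested. A match of letters is a description and not a binding site.

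Of the 40 members, 37 had enough counts to be tested. In the quasi-likelihood fit of edgeR, with p-values adjusted by the Benjamini-Hochberg procedure across the 15319 genes that passed the count filter, 10 members rose in the OE-MMP28 group, 4 fell and 23 did not pass an adjusted p of 0.05. Over all genes tested, 11.7% passed as higher and 11.6% as lower. In either direction 37.8% of the members tested passed, against 23.4% of all genes. For 16 of the 37 members, and for 38.1% of all genes, no FPKM value of one group fell within the range of the other, and the members were chosen with earlier results of these data known. The median log2 fold change was 0.12 over the 37 members and 0.014 over all genes tested. With a log2 fold change over 1 as a further condition, 3 members (ITGA1, TNS4 and CAV1) were called higher and 0 lower, against 3.06% and 4.32% of all genes. Without Vector replicate 3, and likewise without OE-MMP28 replicate 2, 6 members were called higher and 2 lower. Without OE-MMP28 replicate 3, 2 were called lower.

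**Figure D1:**
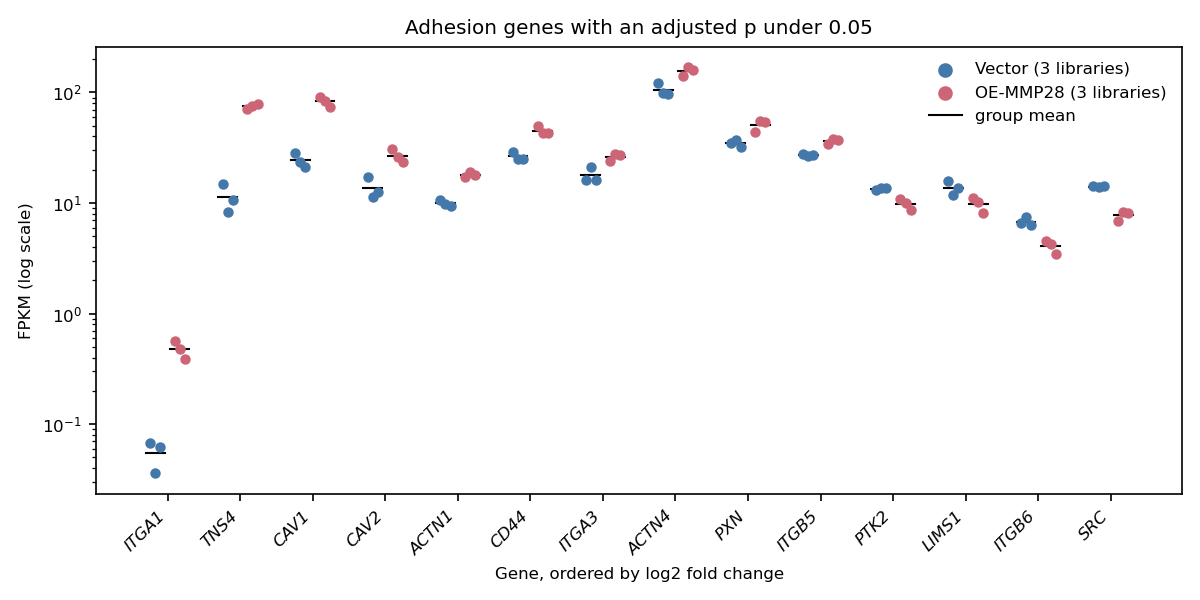
FPKM on a log axis for the 14 adhesion genes with an adjusted p under 0.05, ordered by log2 fold change. Each point is a library (blue Vector, red OE-MMP28) and each short line a group mean. The groups do not overlap for any of the 14 genes, and ITGA1 lies below 1 FPKM in all 6 libraries while TNS4 moves from 8.30 to 14.8 FPKM to 70.2 to 78.9 FPKM.

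Among the alpha chains, which decide which matrix protein is bound, 2 of 7 rose (28.6%, against 11.7% of all genes). None fell, against 11.6% of all genes. ITGA1, the chain of a collagen receptor, had 0.0669, 0.0359 and 0.0621 FPKM in Vector replicates 1 to 3 and 0.569, 0.482 and 0.384 FPKM in the OE-MMP28 replicates. The values of the groups did not overlap, and in both groups ITGA1 was the least abundant of the 37 members tested. Its counts were 19, 9 and 17 against 167, 142 and 120 (log2 fold change 3.11, SE 0.30, 8.63-fold, adjusted p = 4.81e-07). ITGA1 lies on chromosome 5 from 52787896 to 52959210 on the plus strand, on GRCh38 as for all gene coordinates given. PELO, a ribosome rescue factor, lies inside that interval on the same strand (52787940 to 52804046) and shares 2.56% of the exon length of ITGA1. PELO had 300, 213 and 220 counts against 459, 463 and 535 (log2 fold change 0.85, SE 0.17, adjusted p = 0.00147). ITGA2, the other collagen-binding chain in the set, starts 30.1 kb beyond the end of ITGA1 and had 40.9, 28.4 and 37.1 FPKM against 48.1, 50.2 and 28.5 FPKM. These values overlapped (log2 fold change 0.26, SE 0.19, adjusted p = 0.337). The ratio of ITGA1 to ITGA2 on the FPKM scale was 0.00153 ± 0.000227 (SD, n = 3) in Vector cells and 0.0116 ± 0.00194 (SD, n = 3) in OE-MMP28 cells.

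ITGA3, the chain of the laminin receptor with ITGB1, had 16.03, 21.0 and 16.2 FPKM against 24.0, 27.8 and 27.0 FPKM. Every OE-MMP28 library lay above every Vector library (log2 fold change 0.58, SE 0.15, adjusted p = 0.00936). The call was lost without Vector replicate 3 (adjusted p = 0.0672) and without OE-MMP28 replicate 2 (adjusted p = 0.0713). ITGA6, the laminin-binding chain that pairs with ITGB4 or ITGB1, was the most abundant alpha chain, at 64.9, 35.8 and 44.4 FPKM against 74.9, 76.8 and 52.9 FPKM. Its groups overlapped and it did not pass (log2 fold change 0.51, SE 0.19, adjusted p = 0.0597), while it passed with the replicate number as a block (0.53, adjusted p = 0.0149), without Vector replicate 1 (0.78, adjusted p = 0.00255) and without OE-MMP28 replicate 3 (0.66, adjusted p = 0.0366). ITGA5, the fibronectin receptor chain, had a log2 fold change of 0.29 (SE 0.19, adjusted p = 0.304) at 2.34 to 2.83 FPKM in the group means. ITGAE, the chain that binds E-cadherin, was at 1.63 ± 0.140 FPKM (SD, n = 3) and 2.08 ± 0.152 FPKM (SD, n = 3), groups that did not overlap although the gene did not pass (log2 fold change 0.36, SE 0.19, adjusted p = 0.173). ITGAV, the chain shared by the receptors for RGD-containing ligands, had a log2 fold change of -0.16 (SE 0.17, adjusted p = 0.527).

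Among the beta chains, 1 rose and 1 fell of 5 tested. ITGB6, the partner of ITGAV in the epithelial receptor that binds and releases latent TGF-beta, had 6.63, 7.40 and 6.33 FPKM against 4.52, 4.29 and 3.45 FPKM. Every OE-MMP28 library lay below every Vector library (log2 fold change -0.72, SE 0.17, adjusted p = 0.00443). The call was lost in 1 of 18 alternative fits, that with the changes of neighbouring genes as an offset (-0.25, adjusted p = 0.349). AC092153.1 on the same strand shares 20.6% of the exon length of ITGB6 and had 8, 5 and 4 counts against 2, 0 and 4. ITGB5, another partner of ITGAV and part of a vitronectin receptor, had 27.6, 26.6 and 27.4 FPKM against 34.5, 37.9 and 37.1 FPKM. Its groups did not overlap either (log2 fold change 0.44, SE 0.14, adjusted p = 0.0278), and the call was lost in 6 of 18 alternative fits, 4 of which left out a library. ITGB8, a further partner of ITGAV in TGF-beta activation, had 9.80, 12.01 and 12.3 FPKM against 10.5, 8.37 and 6.78 FPKM and did not pass (log2 fold change -0.41, SE 0.16, adjusted p = 0.0796). The ratio of ITGB6 to ITGB5 was 0.250 ± 0.0253 (SD, n = 3) in Vector cells and 0.112 ± 0.0190 (SD, n = 3) in OE-MMP28 cells, without overlap. Pairs of genes set against each other as ratios were chosen after their values were seen, so these ratios are descriptions and were not tested.

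The most abundant members were the beta chains ITGB4 and ITGB1. ITGB4, the hemidesmosome chain, had 140, 220 and 186 FPKM against 197, 268 and 258 FPKM, with overlapping groups (log2 fold change 0.42, SE 0.17, adjusted p = 0.0825). The ratio of ITGA6 to ITGB4, its hemidesmosome partner, was 0.288 ± 0.155 (SD, n = 3) in Vector cells and 0.291 ± 0.0878 (SD, n = 3) in OE-MMP28 cells, the 1 of 7 pairs examined whose groups overlapped. ITGB4 passed with the replicate number as a block (0.43, adjusted p = 0.0476) and without Vector replicate 2 (0.57, adjusted p = 0.0128). ITGB1, the common partner of most alpha chains, had 207, 182 and 197 FPKM against 206, 188 and 133 FPKM and did not pass (log2 fold change -0.14, SE 0.16, adjusted p = 0.561). ITGB3, the chain of platelet and vascular receptors, had 4, 6 and 1 counts against 1, 0 and 1 counts and was not tested.

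The composition of the integrin pool was described as each chain's percent of the summed FPKM of its kind. The 7 alpha chains summed to 126 ± 19.9 FPKM (SD, n = 3) and 160 ± 29.01 FPKM (SD, n = 3), and the 6 beta chains to 423 ± 28.4 FPKM (SD, n = 3) and 466 ± 36.2 FPKM (SD, n = 3), with p = 0.2 for both by a two-sided exact permutation test, for which 0.1 is the smallest p that 3 against 3 libraries can give. ITGA6 led the alpha chains with 37.8% ± 5.63 (SD, n = 3) and 42.5% ± 0.696 (SD, n = 3), which overlapped. The share of ITGAV was 16.3% ± 1.95 (SD, n = 3) in Vector cells and 11.2% ± 1.08 (SD, n = 3) in OE-MMP28 cells, without overlap (exact permutation p = 0.1, 0.35 after Benjamini-Hochberg adjustment over the 7 alpha chains). ITGA1 took 0.0432% ± 0.00979 (SD, n = 3) and 0.299% ± 0.0289 (SD, n = 3), also without overlap and with the same p-values. ITGB1 took 46.5% ± 6.16 (SD, n = 3) and 37.7% ± 7.61 (SD, n = 3) of the beta chains and ITGB4 took 42.8% ± 6.64 (SD, n = 3) and 51.7% ± 7.73 (SD, n = 3), and both overlapped between the groups (exact permutation p = 0.2). The share of ITGB5 was 6.46% ± 0.560 (SD, n = 3) and 7.86% ± 0.532 (SD, n = 3), that of ITGB8 2.69% ± 0.187 (SD, n = 3) and 1.84% ± 0.417 (SD, n = 3), and that of ITGB6 1.61% ± 0.115 (SD, n = 3) and 0.877% ± 0.109 (SD, n = 3). These 3 shares did not overlap between the groups (exact permutation p = 0.1 each, adjusted 0.15 over the 6 beta chains) and no share could pass 0.05 in this design. ITGB3 took 0.0138% ± 0.00956 (SD, n = 3) and 0.00209% ± 0.00181 (SD, n = 3), also without overlap and with the same p-values. Its share rests on 4, 6 and 1 counts against 1, 0 and 1. Among the ITGAV partners ITGB5, ITGB6 and ITGB8, the share of ITGB5 was higher in every OE-MMP28 library than in every Vector library. The shares of ITGB6 and ITGB8 were lower in the same way.

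**Figure D2:**
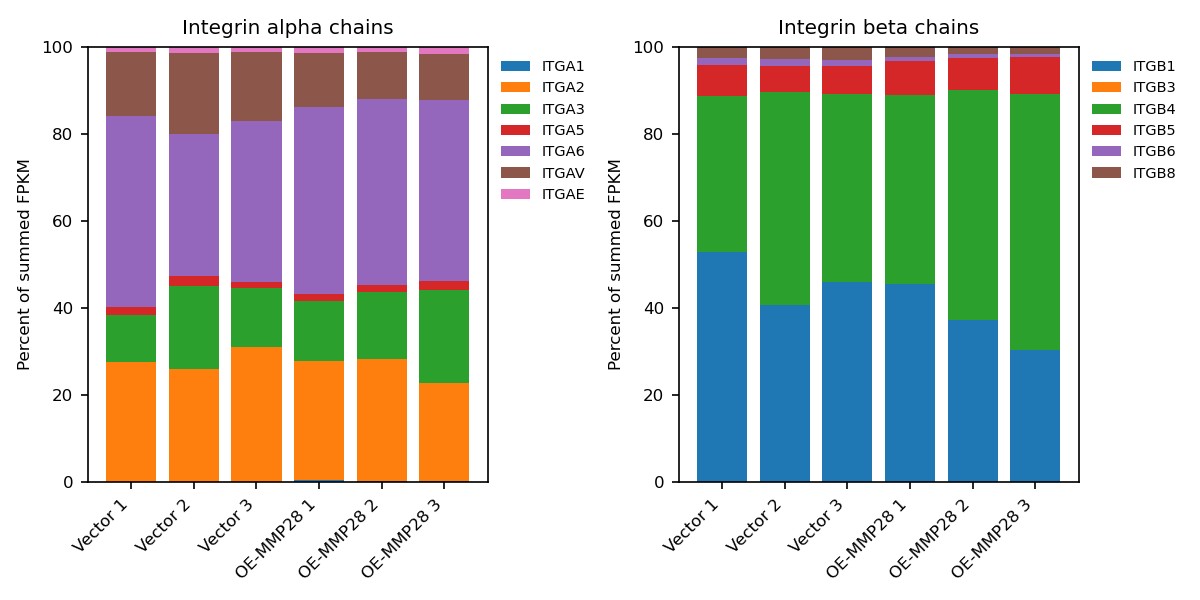
Stacked bars of the percent of summed FPKM taken by each integrin alpha chain (left) and beta chain (right) in each of the 6 libraries. ITGA6 and ITGA2 fill most of the alpha bars and ITGB1 and ITGB4 most of the beta bars. The ITGAV segment is smaller in each OE-MMP28 library (10.6% to 12.5%) than in each Vector library (14.8% to 18.5%).

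Tensins link the integrin tail to actin, and TNS4 lacks the actin-binding part that the longer tensins carry. TNS4 had 14.8, 8.30 and 10.6 FPKM in the Vector group and 70.2, 75.4 and 78.9 FPKM in the OE-MMP28 group. The lowest OE-MMP28 library was above the highest Vector library by several times the spread within either group (log2 fold change 2.74, SE 0.19, 6.70-fold, adjusted p = 6.87e-09), and TNS4 was called in all 18 alternative fits. TNS4 lies on chromosome 17 from 40475828 to 40501597 on the minus strand. TNS3, a long tensin, had 10.8, 13.3 and 11.3 FPKM against 11.0, 12.9 and 9.71 FPKM, which overlapped (log2 fold change -0.06, SE 0.15, adjusted p = 0.815). TNS2, another long tensin and no member of the set, named after its values were seen, had 3.596, 4.67 and 3.73 FPKM against 4.86, 6.13 and 6.66 FPKM. It passed as higher without overlap of the groups (log2 fold change 0.57, SE 0.17, adjusted p = 0.0214), and the call was lost in 6 of 18 alternative fits. TNS4 to TNS3 ratios were 1.38, 0.626 and 0.939 in the Vector group and 6.40, 5.83 and 8.13 in the OE-MMP28 group. TNS1 had 5, 11 and 6 counts against 8, 7 and 2 counts and was not tested.

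None of the 3 integrin activators tested passed, against 23.4% of all genes in either direction. TLN1, the main talin, was at 41.1 ± 2.08 FPKM (SD, n = 3) and 39.4 ± 2.99 FPKM (SD, n = 3) and did not pass (log2 fold change -0.05, SE 0.14, adjusted p = 0.840). FERMT1, the epithelial kindlin, was at 75.7 ± 13.7 FPKM (SD, n = 3) and 75.7 ± 10.9 FPKM (SD, n = 3). TLN2 had a log2 fold change of -0.10 (SE 0.17, adjusted p = 0.704). FERMT2, the kindlin of mesenchymal cells, had 0, 6 and 1 counts against 14, 8 and 11 counts, too few to be tested.

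Of the 9 adaptors, 1 rose (11.1%, against 11.7% of all genes), 1 fell (11.1%, against 11.6%) and 7 did not pass. PXN (paxillin), the scaffold that FAK and Src phosphorylate, had 35.2, 36.8 and 32.4 FPKM against 43.5, 55.6 and 54.0 FPKM. The groups did not overlap (log2 fold change 0.57, SE 0.15, adjusted p = 0.00917), and the call was lost in 3 of 18 alternative fits, among them those without Vector replicate 3 (adjusted p = 0.0627) and without OE-MMP28 replicate 2 (adjusted p = 0.0785). PXN-AS1 lies on the opposite strand over 12.3% of the exon length of PXN, and the kit of the library does not mark strand. PXN-AS1 had 21, 54 and 37 counts against 86, 62 and 57. PXN had 4012, 3712 and 3565 counts against 5133, 6577 and 6778. The part of PXN-AS1 in the PXN counts was not tested. LIMS1 (PINCH-1), which binds ILK in a complex that also holds a parvin, had 15.9, 11.7 and 13.6 FPKM against 11.1, 10.2 and 8.14 FPKM. Its groups did not overlap but lay close, at 11.7 and 11.1 FPKM (log2 fold change -0.48, SE 0.16, adjusted p = 0.0366), and the call was lost in 7 of 18 alternative fits. Of the near-identical copies of LIMS1, LIMS3 had a count of 0 in every library and LIMS4 at most 1. The treatment of reads that match several places is not given. These counts therefore cannot show whether the copies were expressed or added to the LIMS1 counts. The other genes of the set in that complex did not pass: ILK had a log2 fold change of -0.08 (SE 0.29), PARVA of -0.01 (SE 0.14) and PARVB of 0.20 (SE 0.16). Outside the set, LIMS2 (PINCH-2) passed as lower at under 1 FPKM, with 40, 27 and 36 counts against 15, 15 and 16 (log2 fold change -1.29, SE 0.36, adjusted p = 0.0131). It was called in 12 of 15 alternative fits, and not in that with the changes of neighbouring genes as an offset (-0.79, adjusted p = 0.151). RSU1, also outside the set, did not pass (-0.46, SE 0.17, adjusted p = 0.0526). LIMS2 and RSU1 were named after their values were seen. TAF10 lies on the opposite strand over 68.1% of the exon length of ILK, so the level of ILK (1.11 FPKM in the Vector mean) is uncertain. VCL (vinculin) at 30.1 and 30.8 FPKM and ZYX (zyxin) at 24.2 and 24.8 FPKM in the group means had log2 fold changes of 0.04 (SE 0.14) and 0.05 (SE 0.16). LPP, a relative of zyxin, had 0.12 (SE 0.16), and TGFB1I1 (Hic-5), a relative of paxillin, had -0.10 (SE 0.21).

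In the kinase module of 3 genes, both kinases fell (66.7%, against 11.6% of all genes) and the substrate scaffold did not pass. SRC, a tyrosine kinase of focal adhesions, had 14.2, 13.8 and 14.2 FPKM in the Vector group and 6.81, 8.21 and 8.13 FPKM in the OE-MMP28 group. The Vector libraries differed little from each other and all lay above every OE-MMP28 library (log2 fold change -0.85, SE 0.15, adjusted p = 0.000478), and SRC was called in all 18 alternative fits, though not where an absolute log2 fold change over 1 was also asked for. PTK2, which encodes focal adhesion kinase (FAK), had 13.1, 13.6 and 13.7 FPKM against 10.8, 10.04 and 8.56 FPKM. Its groups did not overlap (log2 fold change -0.45, SE 0.14, adjusted p = 0.0289), but the call was lost in 7 of 18 alternative fits. BCAR1 (p130Cas), the scaffold both kinases phosphorylate, had 14.4, 12.4 and 12.6 FPKM against 12.1, 16.5 and 17.7 FPKM, which overlapped (log2 fold change 0.25, SE 0.16, adjusted p = 0.293). NEDD9, a relative of BCAR1 outside the set, passed as higher at under 1 FPKM and was named after its values were seen. It had 33, 18 and 29 counts against 98, 109 and 86 (log2 fold change 1.74, SE 0.29, adjusted p = 0.000257). It was called in all 16 alternative fits made for it. Transcript levels carry no measure of kinase activity.

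Of the 3 actin crosslinkers, both alpha-actinins rose (66.7%, against 11.7% of all genes). ACTN1 had 10.6, 9.72 and 9.44 FPKM against 17.1, 19.2 and 17.8 FPKM, without overlap (log2 fold change 0.88, SE 0.14, adjusted p = 0.000224). ACTN4, the more abundant alpha-actinin, had 122, 98.4 and 97.1 FPKM against 140, 169 and 159 FPKM, also without overlap (log2 fold change 0.57, SE 0.15, adjusted p = 0.00831). CAPN12 lies on the opposite strand over 14.2% of the exon length of ACTN4 and had 89, 119 and 90 counts against 73, 112 and 179. The ACTN4 call was lost without Vector replicate 3 (adjusted p = 0.0580) and without OE-MMP28 replicate 2 (adjusted p = 0.0634), while ACTN1 was called in all 18 alternative fits, though not with an absolute log2 fold change over 1. The ratio of ACTN4 to ACTN1 was 10.6 ± 0.778 (SD, n = 3) in Vector cells and 8.64 ± 0.416 (SD, n = 3) in OE-MMP28 cells. FLNA (filamin A) was at 50.7 ± 6.31 FPKM (SD, n = 3) and 61.8 ± 9.50 FPKM (SD, n = 3) and did not pass (log2 fold change 0.30, SE 0.15, adjusted p = 0.173).

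All 3 membrane partners rose, against 11.7% of all genes. CAV1 (caveolin-1), the coat protein of caveolae, had 28.3, 23.3 and 21.3 FPKM in the Vector group and 91.2, 83.5 and 74.1 FPKM in the OE-MMP28 group. The groups were far apart relative to their spread (log2 fold change 1.78, SE 0.16, 3.44-fold, adjusted p = 1.05e-07). CAV2, which forms mixed oligomers with caveolin-1, ends 16.2 kb before the start of CAV1 on the same strand of chromosome 7 and had 17.4, 11.4 and 12.5 FPKM against 30.8, 26.2 and 23.6 FPKM. Its groups did not overlap (log2 fold change 0.98, SE 0.17, 1.97-fold, adjusted p = 0.000379). The ratio of CAV1 to CAV2 was 1.79 ± 0.225 (SD, n = 3) in Vector cells and 3.09 ± 0.118 (SD, n = 3) in OE-MMP28 cells, without overlap. Of the genes next to the pair, TES had a log2 fold change of 0.28 (SE 0.14, adjusted p = 0.175), MET of 0.47 (SE 0.16, adjusted p = 0.0338) and CAPZA2 of 0.21 (SE 0.17, adjusted p = 0.392). These 3 were named for their position after their values were seen, and their difference from the caveolins was not tested. CD44, the hyaluronan receptor, had 28.98, 25.2 and 25.2 FPKM against 49.4, 43.3 and 42.7 FPKM, without overlap (log2 fold change 0.78, SE 0.14, adjusted p = 0.000585).

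**Figure D3:**
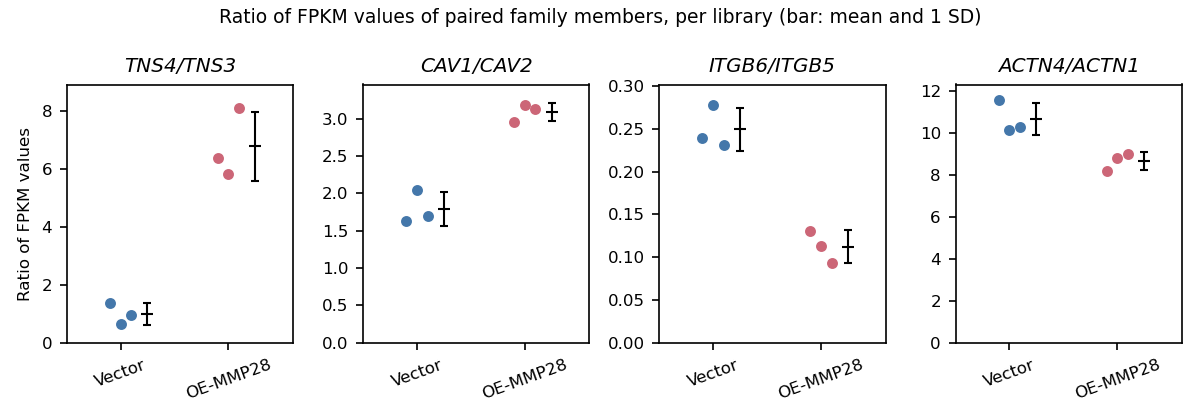
Ratio of the FPKM values of 4 pairs of related members, 1 point per library, with the mean and 1 SD of each group of 3 beside them and a vertical axis from 0 in each panel. The pairs shown are 4 of 7 examined and were chosen after their values were seen. The TNS4 to TNS3 ratio goes from 0.626 to 1.38 in the Vector group to 5.83 to 8.13 in the OE-MMP28 group, and the 4 ratios shown do not overlap between the groups.

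Neither plakin passed. PLEC (plectin), which fastens ITGB4 to keratin, was at 95.9 ± 17.4 FPKM (SD, n = 3) and 85.0 ± 13.2 FPKM (SD, n = 3) (log2 fold change -0.16, SE 0.16, adjusted p = 0.517), and DST, whose epithelial form BPAG1e is a hemidesmosome protein, at 7.87 ± 0.262 FPKM (SD, n = 3) and 7.66 ± 1.30 FPKM (SD, n = 3).

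Log2 fold changes of members were also set beside those of their chromosomal surroundings. The local median was taken as the median log2 fold change of the other tested genes within 5 Mb of a gene's midpoint, over 21 to 181 genes. Of the 37 members, 13 had a local median beyond 0.3 in either direction (35.1%, against 24.0% of all genes), 5 above and 8 below, from -0.58 at ITGB1 to 0.46 at LPP. On chromosome 2 the local median was -0.47 at ITGB6, -0.34 at ITGAV, -0.31 at LIMS1 and -0.28 at ITGA6. On chromosome 10 it was -0.58 at ITGB1 and -0.45 at VCL, and on chromosome 8 it was -0.42 at PTK2 and -0.43 at PLEC. What moves these regions was not tested.

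With the local median as an offset in the fit, 11 members passed as higher and 1 as lower, against 7.42% and 8.02% of all genes. The offset was a fixed value taken from the main fit of the same libraries. Its adjusted p-values carry neither the error of that median nor the spread of the neighbouring genes. They therefore do not test a gene against its surroundings. ITGA1, ITGA3, TNS4, ACTN1, ACTN4, CAV1, CAV2 and CD44 stayed higher and SRC stayed lower. The offset moved ITGB6 to -0.25 (adjusted p = 0.349), PTK2 to -0.03 (adjusted p = 0.929), LIMS1 to -0.17 (adjusted p = 0.527), ITGB5 to 0.09 (adjusted p = 0.717) and PXN to 0.22 (adjusted p = 0.344), and these 5 members no longer passed. In the other direction, ITGA6 at 0.79 (adjusted p = 0.00816), VCL at 0.49 (adjusted p = 0.0249) and BCAR1 at 0.56 (adjusted p = 0.0250) passed as higher with the offset. ITGB1 was at 0.44 with the offset and did not pass (adjusted p = 0.0629).

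**Figure D4:**
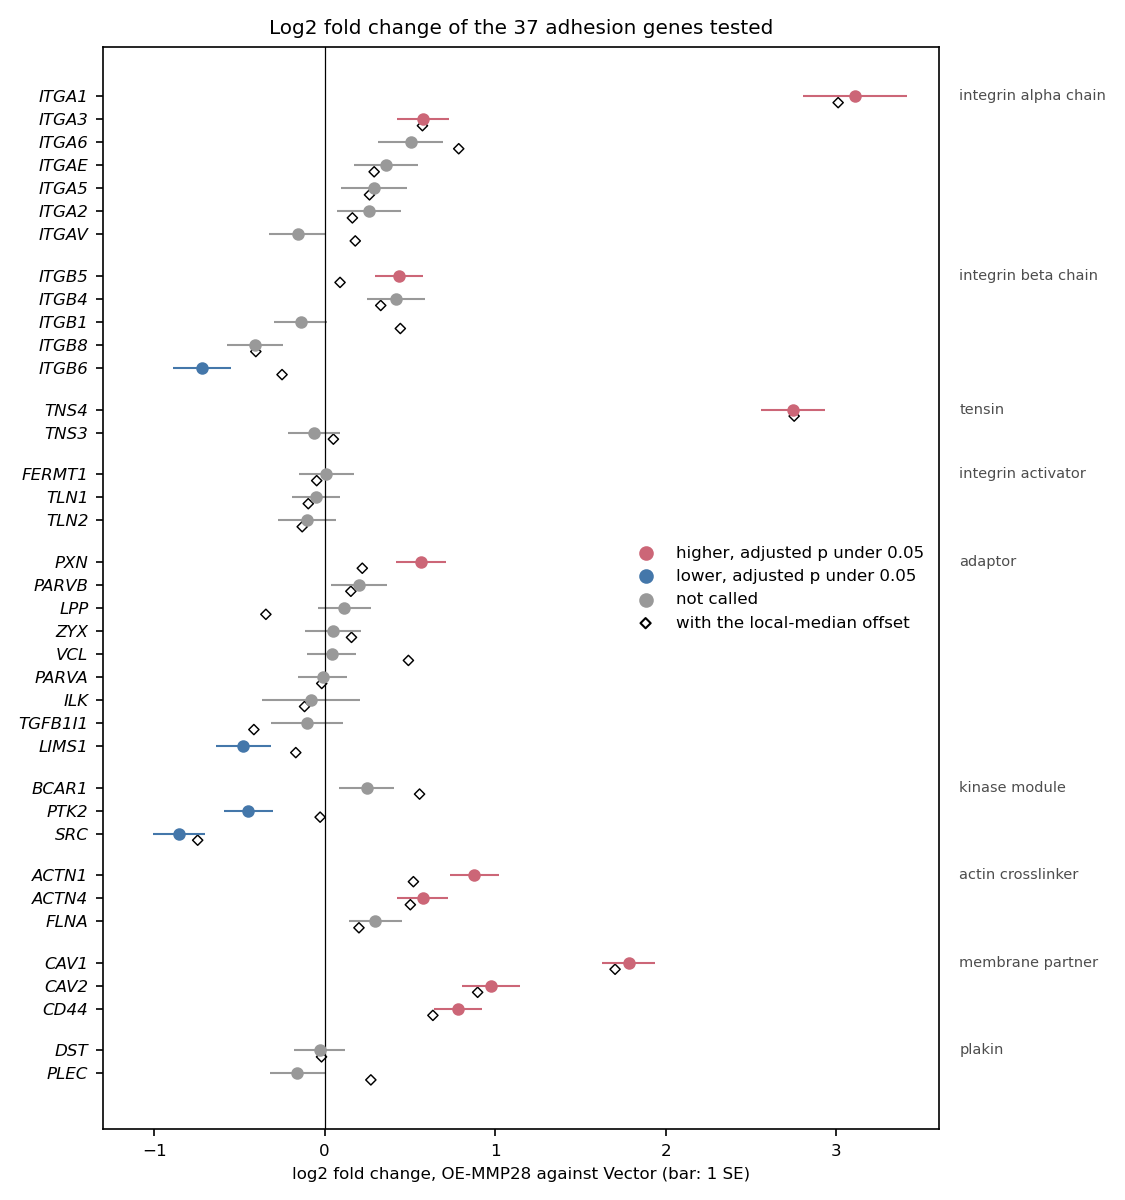
Log2 fold change, OE-MMP28 against Vector, of the 37 members tested, grouped by role. Filled circles with bars give the value and 1 SE from edgeR (red higher, blue lower, grey not called), and open diamonds give the value with the local-median offset. The diamonds of ITGB6, PTK2, LIMS1, ITGB5 and PXN lie nearer 0 than the circles, while those of TNS4, SRC, CAV1 and ITGA1 stay close to theirs.

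Other genes of the pathway were taken from 5 lists that share no gene with the members. Of 48 other focal adhesion genes, 43 were tested, 9 rose (20.9%, against 11.7% of all genes) and 5 fell (11.6%, the same as the share of all genes), with a median log2 fold change of 0.012. With the local-median offset 4 of them passed as higher and 1 as lower. Among them SVIL (supervillin), which binds actin and myosin at the membrane, had 17.2, 20.1 and 16.2 FPKM against 6.81, 6.34 and 5.40 FPKM (log2 fold change -1.52, SE 0.15, adjusted p = 8.42e-07). SVIL lies on chromosome 10 in surroundings with a local median of -0.54 and stayed lower with the offset (-0.98, adjusted p = 0.000180). Of 13 other integrin chains, 4 were tested and 1 rose. This was ITGB2, a chain known from leukocytes, which had 132, 221 and 194 counts against 324, 515 and 449 counts (log2 fold change 1.08, SE 0.22, adjusted p = 0.00178). Its group means were 1.87 and 3.91 FPKM. The 5 macrophage markers summed to 0.711 to 1.18 FPKM in the same libraries, and which cells the ITGB2 counts came from was not tested.

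Of 22 integrin ligands, 17 were tested, 1 rose (5.88%, against 11.7% of all genes) and 5 fell (29.4%, against 11.6% of all genes), with a median log2 fold change of -0.31. TNC (tenascin-C), a ligand of several integrins, had 2.36, 1.31 and 1.34 FPKM against 6.04, 5.90 and 5.55 FPKM (log2 fold change 1.81, SE 0.20, adjusted p = 3.14e-06). LAMB1, a laminin beta chain, fell by 1.11 on the log2 scale (SE 0.16, adjusted p = 4.96e-05). MFGE8, a ligand of ITGAV receptors, fell by 1.22 (SE 0.21, adjusted p = 0.000360), and LTBP1, which holds latent TGF-beta in the matrix, fell by 1.17 (SE 0.17, adjusted p = 5.35e-05). All 4 passed in all 18 alternative fits, as did ITGB2, SVIL and ARF6. Of 15 genes of integrin activation and traffic, 13 were tested, 1 rose (7.69%, against 11.7% of all genes) and 3 fell (23.1%, against 11.6% of all genes). With the local-median offset 1 of them passed as higher and 1 as lower. ARF6, a small GTPase that recycles integrins to the membrane, had 36.6, 32.6 and 32.0 FPKM against 70.4, 79.4 and 70.2 FPKM (log2 fold change 1.13, SE 0.14, adjusted p = 1.48e-05), in surroundings with a local median of 0.62. Of 5 hemidesmosome partners, 3 were tested and 0 passed by edgeR, 0 by DESeq2, 0 by limma voom and 0 at an unadjusted p under 0.05. With the local-median offset 1 of them, COL17A1, a hemidesmosome collagen, passed as higher (0.53, adjusted p = 0.0127, against 0.08 and adjusted p = 0.732 without the offset).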

How the data were processed

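RNA of 6 AsPC-1 libraries, 3 per group, was sequenced by the study. The authors deposited 1 table with a raw read count per gene and library and, beside it, FPKM (fragments per kilobase of summed exon length scaled to the library total). The submitters' processing notes name HISAT2 2.0.5 and featureCounts 1.5.0-p3. The strand setting and the treatment of reads that match several places are not given in the sources used here. All 58735 gene IDs and coordinates were those of GENCODE release 29 (GRCh38). Levels of genes with long, rarely used exons are understated by FPKM. Columns with the authors' own comparison of the groups (fold changes and p-values) were not used, and 0 per-sample columns were left unmapped.

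Counts were tested with edgeR 4.0.16 in R 4.3.3 by the quasi-likelihood test, after filterByExpr (minimum count 10, minimum total 15) and TMM scaling, with the group as the only term. The Benjamini-Hochberg adjustment covered the 15319 genes that passed, and a gene was called at an adjusted p under 0.05. The SE was derived from the log2 fold change and its F statistic. The study's methods name limma, which was run as an alternative. For shares of integrin chains the exact permutation test (two-sided, SciPy 1.17.1) was used. The main edgeR fit and a limma fit on log2 values were tried on simulated counts. The alternative edgeR settings, DESeq2 and voom were not.

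The members, the gene lists and the tests were chosen with earlier results of these data known. Members with an adjusted p under 0.05 were to be given in every library. Genes of the other lists were to be named at an adjusted p under 0.05, an absolute log2 fold change over 1 and a mean of at least 1 FPKM. TNS2, LIMS2, RSU1, NEDD9, TES and COL17A1 fall outside that rule and were named after their values were seen. Single cell type markers were also named outside it. Libraries differed from each other beyond counting noise within groups (chi-square per degree of freedom 15.3 to 30.9 within and 42.1 to 74.7 between groups), so none was counted as a duplicate. Alternatives were leaving out each library, the replicate number as a block, upper-quartile scaling, DESeq2 size factors, DESeq2 1.42.0, limma voom and limma 3.58.1 on log2(FPKM + 1) and log2(FPKM + 0.1), no count filter, a minimum count of 50, protein-coding genes only, no mitochondrial genes, the local-median offset (windows with at least 10 genes) and an absolute log2 fold change over 1. Promoters of 7 called members overlapped GENCODE exons by more than 30 bases, and their letters are not given.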

Additional observations from a re-analysis of the deposited data

How the results depend on the processing

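Of 14 members called, 7 (ITGA1, TNS4, SRC, ACTN1, CAV1, CAV2 and CD44) were called at an adjusted p under 0.05 in every alternative fit made for them, and 0 reversed. Of these 7, ITGA1, TNS4 and CAV1 also passed an absolute log2 fold change over 1. ITGA1 was too low for the FPKM fits. Leaving out a library gave 6 to 11 members higher and 2 to 5 lower, and over all genes 985 to 1916 higher and 1044 to 1949 lower. Limma on log2(FPKM + 1) gave 2 members lower, with 1009 genes higher and 965 lower, and on log2(FPKM + 0.1) 2 members lower, with 1000 genes higher and 970 lower. The local-median offset gave 1 member lower and 1137 genes higher. An absolute log2 fold change over 1 left 3 members higher and 0 lower, and 469 genes higher and 662 lower. With CPM in place of FPKM the share differences were 0.62 percentage points for ITGA1, -0.52 for ITGB6 and -1.96 for ITGB8. Apart from the stricter rule on fold change, the cause of these shifts was not tested.

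The replicate numbers shared by the groups showed no sign of pairing the libraries. Deviations of same-numbered libraries correlated at -0.088 to 0.017 and no library (0 of 6) correlated best with its own number. Deviations from means of 3 libraries depend on each other, so these values cannot exclude a pairing. With the number as a block, 12 members were higher and 4 lower, and 1844 and 1841 of all genes. ITGA6 and ITGB4 were added. The block fit had 2 residual degrees of freedom and 107 prior ones, which weigh the variance shared across genes. The main fit had 4 and 16.4. The part of this difference in the added calls was not tested.

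Changes of sign fell on 13 members that were not called. The offset gave 0.18 for ITGAV, 0.44 for ITGB1, 0.051 for TNS3, -0.047 for FERMT1, -0.34 for LPP and 0.27 for PLEC. Upper-quartile scaling gave -0.0081 for VCL and -0.037 for FERMT1. FERMT1 was also -0.0067 with DESeq2 size factors and with DESeq2, -0.0093 with a minimum count of 50, -0.0097 for protein-coding genes and -0.019 without mitochondrial genes. Leaving out a library, the values ranged from -0.32 to 0.016 for ITGAV, -0.28 to 0.021 for ITGB1, -0.19 to 0.030 for TNS3, -0.22 to 0.023 for TLN2, -0.030 to 0.14 for VCL, -0.050 to 0.16 for ZYX, -0.29 to 0.11 for ILK, -0.045 to 0.019 for PARVA, -0.13 to 0.12 for FERMT1, -0.0028 to 0.27 for LPP, -0.31 to 0.087 for TGFB1I1 and -0.17 to 0.081 for DST. Depth limited ITGB3, TNS1 and FERMT2, which were not tested.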
